A study of Mus musculus with 12 samples.

Results

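The genes described are 8 genes of Müller glia homeostasis, namely Slc1a3, Glul, Kcnj10, Aqp4, Rlbp1, Sox9, Dkk3 and Abca8a. They were chosen by symbol, with earlier results of these data known, and all 8 were found among the 25124 genes listed for each experiment. Their levels were read in 12 RNA-seq libraries of whole retina from wildtype C57BL/6J mice, in 6 groups of 2. The 3mo control and 18mo control groups are untreated retinas of animals aged 3 and 18 months. The 3mo IOP and 18mo IOP groups are retinas of eyes held at an intraocular pressure (IOP) of 30 mmHg for 1 h and collected 2 days later, with the untreated eye on the other side of the animal serving as the control. The 4xIOP group is retina given this elevation 4 times, biweekly, in animals that were 3 months old at the start, collected 2 days after the last, and the 4xIOP control is the untreated contralateral retina. Every control therefore comes from an animal whose other eye was treated. The labels number the libraries 1 and 2 but do not say which eyes share an animal or whether a number marks a separate animal, so the p-values measure only the spread between these libraries.

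Müller glia are the radial glia of the retina and span its whole depth. They clear glutamate released at synapses and turn it into glutamine, carry potassium and water from active neurons towards the blood and the vitreous, and take part in recycling retinoids for cones. After injury they become reactive, a state known for intermediate filament genes such as Gfap and Vim and for a change in these support functions. Most of the 8 genes are also made by astrocytes, and Rlbp1 by the retinal pigment epithelium (RPE), so in whole retina they report mainly but not solely on Müller glia.

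In the single-IOP experiment 7 of the 8 genes were higher in 18mo control than in 3mo control retinas, by between 1.52-fold (Abca8a) and 3.82-fold (Kcnj10), and Rlbp1 did not pass the test. Of all genes tested 26.7% were higher, and the count of 7 went to 4 with a transcript-length trend removed and to 2 without 18mo control replicate 1. After a single elevation none of the 8 passed the test at either age. After 4 elevations Sox9 was higher, by 1.93-fold, but passed under only 4 of 10 other processing choices. Glul was at 0.461 times its control level, which did not pass as reported and passed under 6 of 11 others. Levels are FPKM (fragments per kilobase of transcript, scaled to the tags of the library), and fold changes are differences on the log2(FPKM + 0.5) scale fitted with limma. A gene passed the test if its p, adjusted by Benjamini-Hochberg over all genes tested, was no higher than 0.05, and was called if its log2 fold change was also at least 1 in size.

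The libraries held between 39766241 and 59455043 tags. Between 66.0% and 71.5% of these fell in exons in the single-IOP experiment and between 44.2% and 53.7% in the repeated one. Transcripts shorter than 1000 bases had a median FPKM that, divided by the median of those with at least 4000 bases, gave 1.89 and 4.70 in the 3mo control libraries, 3.26 and 2.99 in 3mo IOP, 1.28 and 1.21 in 18mo control and 1.20 and 1.36 in 18mo IOP. Short transcripts thus carried more weight in all 3mo libraries, most of all in 3mo control replicate 2. The part of this difference in the age results was tested only by removing each library's trend with transcript length, alone or together with GC content, and those values stand beside each gene that lost a pass or a call. With whole retina, fewer cells of a type and less RNA per cell cannot be told apart.

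Glul was the most abundant of the 8 in every library and Sox9 or Kcnj10 the least. In FPKM, which is per length, the 8 genes summed to 531 and 633 in the untreated eyes at 3 months, 602 and 514 in 3mo IOP, 1436 and 1135 in 18mo control and 1670 and 1384 in 18mo IOP libraries. In the repeated experiment the sums were 841 and 900 in 4xIOP control and 553 and 662 in 4xIOP. Glul made up between 44.1% and 68.8% of the sum. Rlbp1 stood above Dkk3 in the 4 libraries of 3mo control and 3mo IOP, and below it in the other 8. Slc1a3, Abca8a and Aqp4 changed places from library to library, and their order was not tested. The experiments were tabulated separately, so no level was tested between them.

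Sequence just upstream of the start site was at hand for 5 of the 8 genes in RefSeq (GRCm38.p6, the build mm10 of the files), and all 5 windows begin at the start of the transcript counted. The 250 bases before the start are shown for Slc1a3 and Kcnj10, which lay above both control libraries after 4 elevations, and for Glul and Rlbp1, which lay below both, though none of the 4 passed the test there. They are written 5′ to 3′ on the strand of the gene, with matches to the searched motifs in capitals.
Slc1a3, chr15:8710808-8711057, minus strand: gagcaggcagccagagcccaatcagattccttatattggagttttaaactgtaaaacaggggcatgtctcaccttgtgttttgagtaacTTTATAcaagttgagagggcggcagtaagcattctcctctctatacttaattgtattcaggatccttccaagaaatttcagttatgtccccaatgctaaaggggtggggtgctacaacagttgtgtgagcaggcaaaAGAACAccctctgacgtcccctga
Kcnj10, chr1:172340960-172341209, plus strand: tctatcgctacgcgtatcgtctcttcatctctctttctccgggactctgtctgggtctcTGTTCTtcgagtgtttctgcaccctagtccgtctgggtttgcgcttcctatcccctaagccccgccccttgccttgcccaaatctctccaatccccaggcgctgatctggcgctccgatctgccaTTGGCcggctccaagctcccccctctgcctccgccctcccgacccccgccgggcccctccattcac
Glul, chr1:153899679-153899928, plus strand: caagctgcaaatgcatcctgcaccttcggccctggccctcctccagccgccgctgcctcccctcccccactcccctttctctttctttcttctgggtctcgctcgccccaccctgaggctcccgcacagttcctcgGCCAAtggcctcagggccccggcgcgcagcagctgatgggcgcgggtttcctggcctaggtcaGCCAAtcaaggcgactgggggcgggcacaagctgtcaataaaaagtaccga
Rlbp1, chr7:79387028-79387277, minus strand: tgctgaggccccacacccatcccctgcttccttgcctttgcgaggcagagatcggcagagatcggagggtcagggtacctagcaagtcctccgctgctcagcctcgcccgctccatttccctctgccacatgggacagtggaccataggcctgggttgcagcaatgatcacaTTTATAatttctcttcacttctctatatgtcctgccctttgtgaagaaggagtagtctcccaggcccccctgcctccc

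Motifs were searched on both strands as exact letters, and positions count back from the start site at the first base of the match. Glul held the NFI half-site TTGGC at positions -114 and -51, and Kcnj10 held it at -66. This half-site occurs in 41.5% of the 32851 windows of the same length. Slc1a3 and Rlbp1 held the TATA box letters TATAAA at -161 and -78, as 12.4% of the windows do. The glucocorticoid receptor half-site TGTTCT was at -24 in Slc1a3 and at -191 in Kcnj10, against 16.1% of the windows. In Abca8a, whose window is not printed, TTGGC matched at -201 and -113. The SOX motif AACAAT, present in 9.42% of windows, matched in none of the 5. The windows of Glul, Kcnj10 and Rlbp1 were 64.8%, 62% and 57.2% G and C, above the median of 52.4% over all windows, and those of Slc1a3 and Abca8a were 44.8% and 43.2%. Matches in so few windows are a description only.

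**Figure D1:**
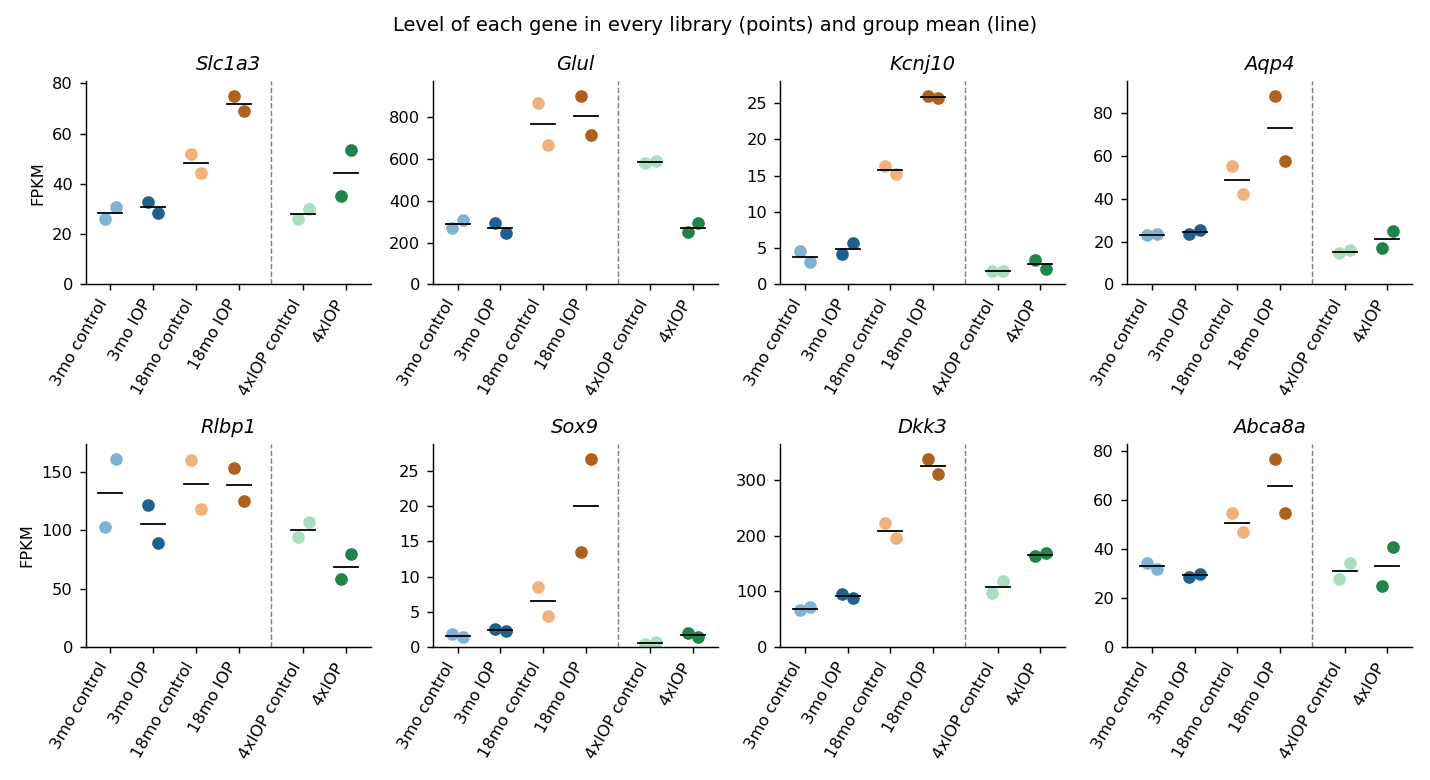
Level of each of the 8 genes in FPKM (vertical axis, linear from 0) in every library (points), by group (horizontal axis), with the group mean as a line; the dashed line separates the single-IOP experiment from the repeated one, which were tabulated separately. In the single-IOP experiment every gene but Rlbp1 stands higher in all 18mo than in all 3mo libraries, and Rlbp1 overlaps between the ages. Glul is at 579 and 592 in 4xIOP control against 249 and 292 in 4xIOP.

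Slc1a3 (chr15:8634124-8710807, minus strand, transcript NM_148938) encodes GLAST, the glutamate transporter of Müller glia. Its level was 26.0 and 30.7 FPKM in the 3mo control libraries, 33.0 and 28.3 in 3mo IOP, 52.0 and 44.4 in 18mo control and 74.9 and 69.0 in 18mo IOP. Both 18mo groups lay above every 3mo library, and the 18mo IOP libraries above the 18mo control ones. The age difference was 0.76 (SE 0.18, adjusted p = 0.0141) in control eyes and 1.22 (SE 0.18, adjusted p = 0.00513) in IOP eyes on the log2 scale. In control eyes the difference lost significance when the length trend was removed (0.42, adjusted p = 0.110), and over 11 alternatives its adjusted p ran from 0.003 to 0.110. It was 0.0534 with only the 2 groups compared, 0.108 without 18mo control replicate 1 and 0.0636 without replicate 2 of that group. In IOP eyes it was 0.91 (adjusted p = 0.00939) with that trend removed, under the size of a call, and without 3mo IOP replicate 2 the adjusted p was 0.0516. A single elevation gave 0.58 (SE 0.18) at 18 months, with an adjusted p of 0.277. In the repeated experiment Slc1a3 was at 26.1 and 29.8 FPKM in control and 35.1 and 53.5 in 4xIOP, without overlap, a difference of 0.63 (SE 0.29, adjusted p = 0.326). Without 4xIOP replicate 1 it was 0.93 (adjusted p = 0.0454) and without replicate 2 it was 0.32 (adjusted p = 0.368), and the adjusted p was 1.00 without either control library.

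Glul (chr1:153899929-153909723, plus strand, transcript NM_008131) encodes glutamine synthetase, which turns glutamate taken up by Müller glia into glutamine. It was at 272 and 309 FPKM in the 3mo control libraries, 293 and 245 in 3mo IOP, 867 and 667 in 18mo control and 901 and 714 in 18mo IOP. The lowest 18mo library held more than 2 times the highest 3mo library. Glul was higher with age by 1.39 (SE 0.27, adjusted p = 0.00796) in control eyes and by 1.58 (SE 0.27, adjusted p = 0.00663) in IOP eyes. These calls were kept under all 11 alternatives, and each failed without 1 library, at adjusted p = 0.0663 without 18mo control replicate 1 and at 0.0578 without 3mo IOP replicate 2. A single elevation left Glul within the spread of the libraries at both ages, with differences of -0.11 (95% interval -0.74 to 0.51) and 0.08 (-0.55 to 0.70).

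After 4 elevations Glul was the one gene of the 8 with a large difference downwards. It was at 579 and 592 FPKM in 4xIOP control and at 249 and 292 in 4xIOP. The difference was -1.12 (SE 0.41), with an unadjusted p of 0.0169 from limma over all genes and an adjusted p of 0.151, so it did not pass the test. It passed under 6 of 11 alternatives, all with every library kept, with adjusted p between 0.004 and 0.414 over the 11 and differences between -1.29 and -1.05. With each library left out in turn, which leaves 1 library in a group, the difference ran from -1.23 to -1.003. Without the mean-variance trend in the fit the same difference of -1.12 had an adjusted p of 0.00740. In this comparison the 2 control libraries differed by little in Glul, and the share of tags in exons was 44.2% and 53.7% in 4xIOP against 49.6% and 49.7% in control, whose part in the result was not tested.

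Kcnj10 (chr1:172341210-172374085, plus strand, transcript NM_001039484) encodes Kir4.1, the potassium channel of the Müller cell end-feet. It rose from 4.595 and 3.05 FPKM in 3mo control to 16.3 and 15.3 in 18mo control, and from 4.19 and 5.68 in 3mo IOP to 26.0 and 25.7 in 18mo IOP. The differences of 1.93 (SE 0.22, adjusted p = 0.00378) and 2.29 (SE 0.22, adjusted p = 0.00177) were called, and passed the test under all 11 alternatives and without each library in turn. The 18mo IOP libraries stood 0.70 (SE 0.22) above 18mo control without overlap, but the adjusted p was 0.275. In the repeated experiment the levels were low, at 1.87 and 1.81 FPKM in control and 3.37 and 2.18 in 4xIOP. That difference of 0.46 (SE 0.22, adjusted p = 0.353) did not pass.

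Aqp4 (chr18:15389394-15410982, minus strand, transcript NM_001308641) encodes the water channel that shares the end-foot membrane with Kir4.1. Its levels were 22.9 and 23.5 FPKM in control and 23.6 and 25.5 in treated eyes at 3 months. At 18 months they were 55.4 and 42.3 in control and 87.9 and 57.7 in IOP eyes, above every 3mo library. The age differences of 1.04 (SE 0.24, adjusted p = 0.0113) and 1.52 (SE 0.24, adjusted p = 0.00550) were both called. With median-of-ratios scaling and with voom the one in control eyes was 0.87 and 0.89, which passed but was under the size of a call. With the length trend removed, or the length and GC trends, the one in control eyes was 0.63 and 0.50, with adjusted p of 0.0537 and 0.142 in a range from 0.006 over 11 alternatives, and without 18mo control replicate 1 it was 0.85 (adjusted p = 0.0816). Aqp4 was 0.55 (SE 0.24, adjusted p = 0.506) higher after a single elevation at 18 months. After 4 elevations it was at 17.1 and 24.8 FPKM against 14.6 and 15.999, a difference of 0.42 (SE 0.26, adjusted p = 0.553).

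Rlbp1 (chr7:79374870-79387027, minus strand, transcript NM_001173483) encodes CRALBP, which binds 11-cis-retinoids in Müller glia and in the RPE. Its levels were 102 and 161 FPKM in the 3mo control libraries, 121 and 89.0 in 3mo IOP, 160 and 118 in 18mo control and 153 and 125 in 18mo IOP. The 4 groups overlapped except for 18mo IOP over 3mo IOP. The age differences were 0.10 (95% interval -0.58 to 0.77) in control eyes and 0.41 (-0.26 to 1.09) in IOP eyes. The first was below 0 with median-of-ratios scaling, with voom and with the length and GC trends removed, and with quantile normalization it was 0.73 with an adjusted p of 0.0244 in a range up to 0.987. In IOP eyes quantile normalization gave 1.02 with an adjusted p of 0.00787, a call, and all 8 genes then passed in both kinds of eye.

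RPE markers moved with age in the opposite direction to the other 7 genes. The 10 markers summed to between 198 and 521 FPKM in the 3mo libraries and to between 2.68 and 11.7 in the 18mo libraries, and all 9 that were tested were lower with age in both kinds of eye. Rpe65, which defines the RPE, was between 5.59 and 20.5 FPKM at 3 months and between 0.018 and 0.462 at 18 months. In the repeated experiment the markers summed to 29.2 and 40.0 FPKM in control and 3.90 and 7.44 in 4xIOP, Rpe65 was at 2.38 and 5.29 against 0.254 and 0.466, and all 4 tested markers were lower. After a single elevation at 3 months 1 of the 9, Mlana, a melanosome protein, was higher, at 124 and 69.0 FPKM against 11.4 and 4.57 (3.59, adjusted p = 0.0325), and the sum of 521 was that of 3mo IOP replicate 1. Mlana was at 0 in 18mo control replicate 2 and in 4xIOP replicate 1. Rlbp1 was at 94.0 and 107 FPKM in 4xIOP control and at 58.4 and 79.5 in 4xIOP, a difference of -0.56 (SE 0.32, adjusted p = 0.4999). It passed under 4 of 11 alternatives, with the lowest adjusted p of 0.0244 and the highest of 0.934. With each library left out in turn the difference ran from -0.78 to -0.33. The part of RPE in the Rlbp1 levels was not tested.

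Sox9 (chr11:112782210-112787757, plus strand, transcript NM_011448) is a transcription factor made by Müller glia of the adult retina, though not by them alone. It was at 1.82 and 1.45 FPKM in the 3mo control libraries, 2.51 and 2.27 in 3mo IOP, 8.58 and 4.44 in 18mo control and 13.4 and 26.7 in 18mo IOP. The 4 groups did not overlap. Age raised it by 1.66 (SE 0.37, adjusted p = 0.0107) in control eyes and by 2.76 (SE 0.37, adjusted p = 0.00337) in IOP eyes, the largest age difference of the 8. The call in control eyes failed without 3mo control replicate 2 (adjusted p = 0.0539) and without 18mo control replicate 1 (0.0663). At 18 months a single elevation gave 1.54 (SE 0.37, 2.91-fold) with an unadjusted p of 0.00283 from limma over all genes and an adjusted p of 0.163. After 4 elevations Sox9 was at 1.99 and 1.39 FPKM against 0.504 and 0.759 in control. This difference of 0.95 (SE 0.24) was the one that passed the test, with an adjusted p of 0.0280. It rests on few reads, 83 in the shallowest library, and held under 4 of 10 alternatives, with adjusted p between 0.022 and 0.198. With the replicate numbers crossed as a block, chosen after seeing the data, the adjusted p was 0.000199, where genes higher over all tested went from 939 to 1492. Leaving out 1 library moved the adjusted p to between 0.0344 and 0.296, and it passed only without 4xIOP control replicate 2.

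Dkk3 (chr7:112116019-112158696, minus strand, transcript NM_001360260) encodes a secreted glycoprotein of the Dickkopf family made by Müller glia. It was at 66.4 and 71.9 FPKM in the 3mo control libraries, 95.9 and 88.1 in 3mo IOP, 222 and 196 in 18mo control and 338 and 311 in 18mo IOP. No group overlapped another, and the IOP libraries were above control at both ages. The age differences of 1.59 (SE 0.19, adjusted p = 0.00434) and 1.81 (SE 0.19, adjusted p = 0.00207) passed the test under all 11 alternatives and without each library in turn. Single elevation gave 0.41 (SE 0.19, adjusted p = 0.648) at 3 months and 0.63 (SE 0.19, adjusted p = 0.249) at 18 months. In the repeated experiment Dkk3 was at 97.7 and 118 FPKM in control and 164 and 168 in 4xIOP, a difference of 0.62 (SE 0.33, adjusted p = 0.446). The IOP libraries were thus above control in all 3 settings, and no one of these differences passed.

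Abca8a (chr11:110025634-110095937, minus strand, transcript NM_153145) encodes a transporter of the ABCA family, linked to lipid export. Its levels were 34.5 and 31.9 FPKM in the 3mo control libraries, 28.6 and 29.9 in 3mo IOP, 54.6 and 46.9 in 18mo control and 76.8 and 54.6 in 18mo IOP. The age difference of 0.60 (SE 0.20, adjusted p = 0.0426) in control eyes was the weakest of the 7, and passed under 6 of 11 alternatives. Of the 4 fits with a library left out it passed only without 3mo control replicate 1, with an adjusted p of up to 0.222 in the others. With the length trend removed it was 0.15, with an adjusted p of 0.514, the highest of the range. It was 0.52 with the length and GC trends removed, and passed (adjusted p = 0.0435). Abca8a, at 5575 bases, and Kcnj10, at 5403, are the longest of the 8 transcripts, and the part of length was tested in no other way. In IOP eyes it was 1.14 (SE 0.20, adjusted p = 0.00750). There it was 0.68 with the length trend removed and 0.97 with the length and GC trends removed, under the size of a call, and without 3mo IOP replicate 1 or 2 the adjusted p was 0.0588 or 0.0552. After 4 elevations the libraries overlapped, at 27.7 and 34.1 FPKM in control and 25.0 and 40.8 in 4xIOP. Abca8a has near copies beside it on the chromosome, and reads shared between copies could not be assigned to either. Of the 3 other ABCA family genes tested, Abca5, Abca6 and Abca8b, only Abca8b passed a test. It was at 11.2 and 7.47 FPKM in 18mo IOP against 4.36 and 4.63 in 3mo IOP, a difference of 0.95 (SE 0.21, adjusted p = 0.0120).

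**Figure D2:**
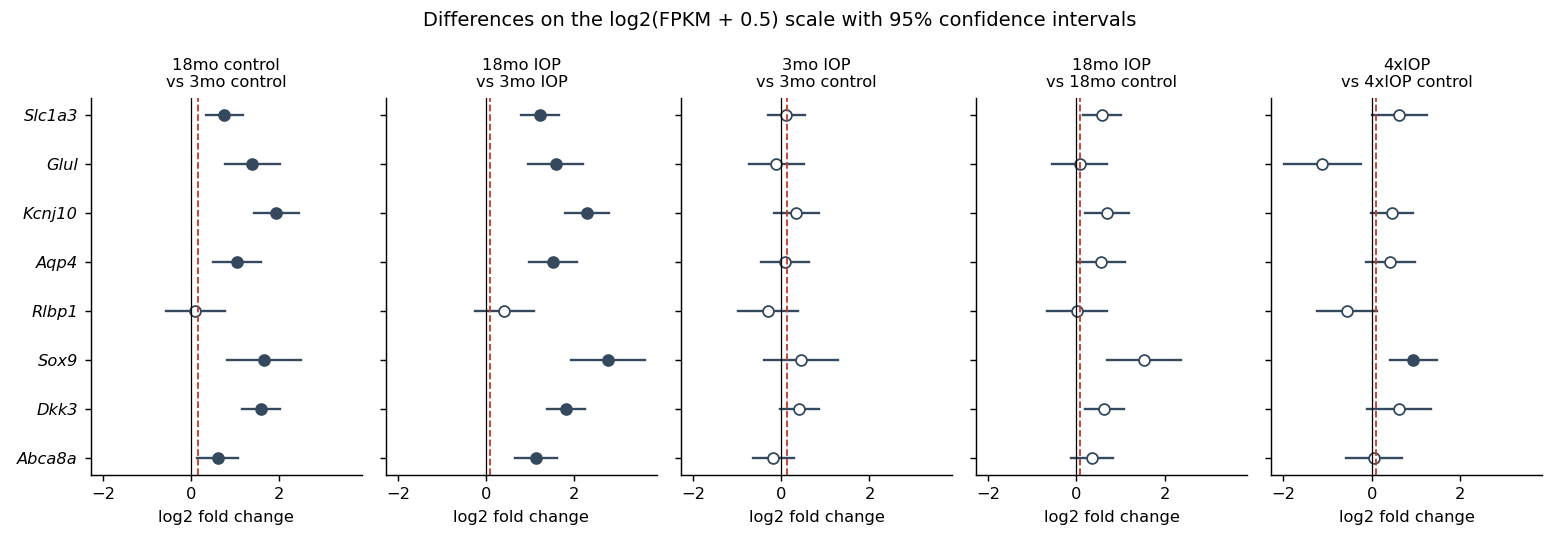
Difference of each gene on the log2(FPKM + 0.5) scale (horizontal axis) in 5 comparisons, with 95% confidence intervals from limma; filled points have an adjusted p of at most 0.05 and the dashed red line is the median of all tested genes. Of the 8 genes 7 are filled in both age panels, none in the single elevation panels, and Sox9 alone in the repeated one, where Glul lies at -1.12.

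Counted over the 8 genes, 5 were called higher with age in control eyes and 7 in IOP eyes, and none lower. Over all genes tested 11.6% and 10.2% were called higher. At the adjusted p alone 7 of 8 were higher in each, against 26.7% and 23% of all genes, while 19.2% and 19.6% of all genes were lower. The median difference of the 8 was 1.22 and 1.55, with medians of 0.16 and 0.09 over all 13731 genes tested. With median-of-ratios scaling the all-gene median in control eyes moved from 0.16 to 0.01 and the median of the 8 to 1.04, a shift that a scaling gives to all genes alike. With the length trend removed the medians were 0.90 for the 8 and 0.04 for all genes, and with the length and GC trends removed 0.89 and 0.02. Median-of-ratios scaling turned the calls over all genes from 1595 higher and 1590 lower to 1056 and 1959. With the length trend removed 4 of the 8 passed in control eyes (Kcnj10, Dkk3, Glul and Sox9) and 7 in IOP eyes. Without 18mo control replicate 1, Kcnj10 and Dkk3 alone passed in control eyes, while the median of the 8 was 1.02 and the genes higher over all tested went from 3667 to 965. Without 3mo IOP replicate 2, 4 of the 8 passed in IOP eyes, with a median of 1.51, and the genes higher over all tested went from 3154 to 401. Without 3mo control replicate 2, the library richest in short transcripts, 5 of the 8 passed and 4 were called. The age comparisons in control and IOP eyes use different libraries, but control eyes are contralateral to treated ones and both share a fit, so they are not independent of each other.

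**Figure D3:**
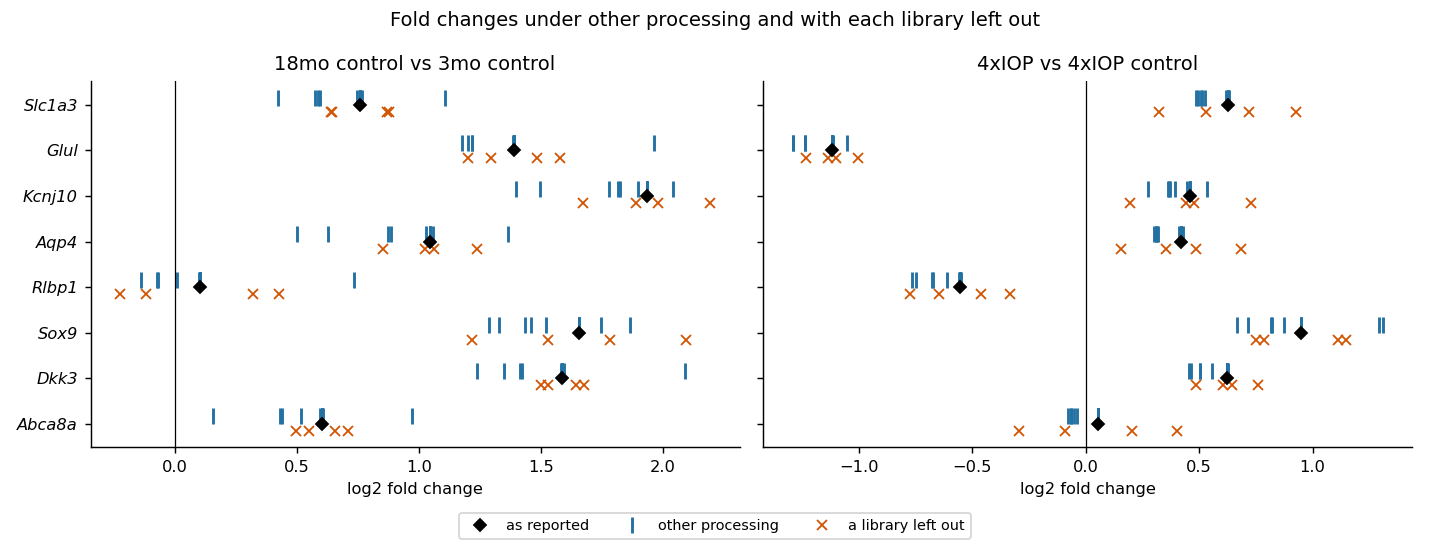
Log2 fold change of each gene (horizontal axis) with age in control eyes and after 4 elevations, as reported (diamonds), under other processing (bars) and with each library left out (crosses). Rlbp1 with age and Abca8a after 4 elevations fall on both sides of 0, while Glul after 4 elevations stays between -1.29 and -1.003.

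A single elevation gave no passing gene among the 8 by limma at either age. With the replicate numbers crossed as a block, an alternative chosen after seeing the data, Sox9 passed at 18 months (adjusted p = 0.00533), where genes higher over all tested went from 16 to 331. At 3 months 0.568% of all genes were higher and 0.00728% lower at the adjusted p, and 8.51% had an unadjusted p under 0.05, which none of the 8 had. The differences of the 8 lay between -0.30 (Rlbp1) and 0.44 (Sox9), with a median of 0.10 against 0.13 over all genes, and those of Aqp4 and Slc1a3 changed sign with scaling. In 3 of the 8 the IOP libraries lay above both controls and in 1 below both, against 28.6% and 3.95% of all genes. At 18 months 0.117% of all genes were higher. Here Sox9, Dkk3, Kcnj10, Slc1a3 and Aqp4 had an unadjusted p under 0.05, as 9.45% of all genes had. In 6 of the 8 the IOP libraries lay above both controls, against 36.5% of all genes, though Abca8a did so only by 54.63 against 54.60 FPKM, and the median was 0.57 against 0.09. Glul and Rlbp1 were the exceptions, at 0.08 and 0.01, and fell below 0 with median-of-ratios scaling. The interaction of IOP with age, which asks whether the response differs between the ages, passed for none of the 8 and for 0% of all genes. None of the 8 had an unadjusted p under 0.05 for it, where 1.59% of all genes did. Its estimate was above 0 in all 8 and reached 1.10 (SE 0.52, adjusted p = 1.00) in Sox9. Over all genes 42.9% of the interaction estimates were above 0.

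After 4 elevations 1 of the 8 passed at the adjusted p (Sox9) and none was called, against 6.85% of all genes higher, 1.1% lower and 6.15% called. Without a filter on low values none passed. Sox9 and Glul had an unadjusted p under 0.05, as 15.4% of all genes had. The 4xIOP libraries lay above both controls in 5 of the 8 (27.7% of all genes) and below both in Glul and Rlbp1 (12.7%). The median of the 8 was 0.44 against 0.10 over all 13718 genes tested. Calls over all genes went from 748 higher and 95 lower to 500 and 142 with quantile normalization. The controls of the 3 settings differ, and no control library is shared between them.

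Within a library the ratio of 2 genes does not depend on the scaling of that library, and was looked at after the levels had been seen. The ratio of Glul to Slc1a3 was 10.48 and 10.1 in untreated eyes at 3 months, 8.89 and 8.66 in 3mo IOP, 16.7 and 15.03 in 18mo control and 12.02 and 10.3 in 18mo IOP. In the repeated experiment it was 22.2 and 19.8 in control and 7.10 and 5.46 in 4xIOP. It was lower in both IOP libraries than in both controls in each of the 3 settings, as 10 of the 28 pairs of the 8 genes separated one way in all 3, and with 2 libraries against 2 the exact permutation test cannot go below p = 0.333. Rlbp1 to Slc1a3 went the same way, at 3.95 and 5.25 against 3.68 and 3.14 at 3 months, 3.09 and 2.67 against 2.04 and 1.81 at 18 months, and 3.60 and 3.59 against 1.67 and 1.49 after 4 elevations. Glul to Dkk3 was 4.10 and 4.30 against 3.06 and 2.78, 3.91 and 3.40 against 2.67 and 2.29, and 5.93 and 5.01 against 1.52 and 1.74 in the same order. The transcripts of Glul and Rlbp1, at 2798 and 2110 bases, are the shortest of the 8, and Slc1a3 and Dkk3 have 4194 and 3330. The ratio of short to long transcripts over all genes was 1.76 and 1.63 in 4xIOP control and 1.45 and 2.20 in 4xIOP. With the length trend removed, the differences after 4 elevations were -1.29 in Glul, -0.75 in Rlbp1, 0.50 in Slc1a3 and 0.46 in Dkk3.

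**Figure D4:**
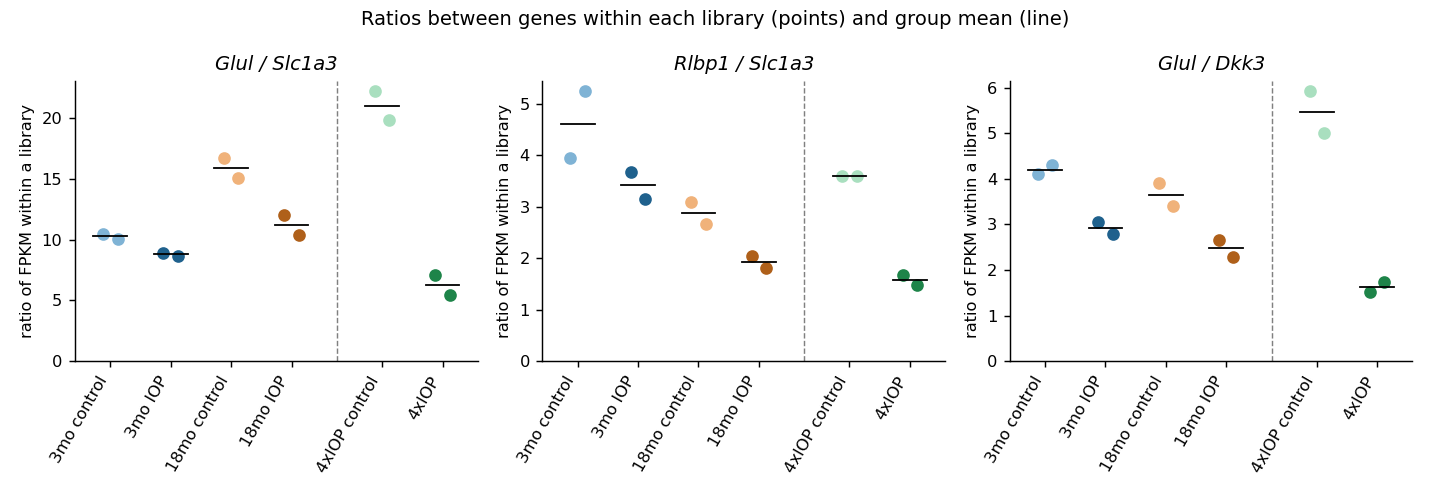
Ratio of FPKM between pairs of genes within each library (vertical axis, linear from 0) by group (horizontal axis), with the group mean as a line and the repeated experiment right of the dashed line. In all 3 panels both IOP libraries lie below both of their controls, as for Glul to Slc1a3 after 4 elevations (7.10 and 5.46 against 22.2 and 19.8). The 3 pairs were looked at after the levels had been seen, and are among the 10 of 28 pairs that separated one way in all 3 settings.

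The partners of these genes were read from lists by role. Over all genes 26.7% were higher and 19.2% lower with age in control eyes, 23% and 19.6% in IOP eyes, and 6.85% and 1.1% after 4 elevations, and the counts of each list stand against these shares. Of 26 genes of the end-feet and of glial transport, such as dystrophin-complex and transporter genes, 24 were tested, and 11 were higher and 1 lower with age in control eyes. Sntb1, a syntrophin that anchors membrane proteins to dystrophin, rose most, from 2.29 and 1.54 to 6.03 and 5.25 FPKM, and Kcnj2, another inward rectifier channel, fell from 1.80 and 1.77 to 0.369 and 0.597. In IOP eyes 10 were higher and 1 lower with age, led by Mlc1, a membrane protein of glial end-feet, at 29.6 and 23.6 FPKM in 3mo IOP and 78.5 and 94.4 in 18mo IOP. None of the 24 passed after a single elevation at either age. After 4 elevations 2 of 25 were higher, near the share over all genes, led by Slc38a5, a glutamine transporter, at 0.109 and 0.499 FPKM in control and 2.17 and 2.09 in 4xIOP.

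Of 9 tested visual cycle partners of Rlbp1, 4 were lower and none higher with age in control eyes, and 4 were lower and 1 higher in IOP eyes. The largest fall was in Rgr, a retinoid-binding opsin of RPE and Müller glia that is also on the RPE marker list, from 23.2 and 30.4 FPKM in 3mo control to 1.52 and 0.794 in 18mo control. Rdh10, a retinol dehydrogenase, rose in IOP eyes from 14.3 and 9.94 to 21.1 and 24.3 FPKM. After 4 elevations Rgr was lower, at 0.262 and 0.536 FPKM against 3.73 and 5.81 in control.

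Glial transcription regulators, the list nearest in role to Sox9, were higher with age in 11 of 17 tested in control eyes and in 12 of 17 in IOP eyes, and lower in none. Hes1, an effector of Notch signalling that keeps progenitor and glial states, was at 5.57 and 6.88 FPKM in 3mo control against 39.2 and 19.4 in 18mo control. In IOP eyes it was at 10.7 and 7.81 against 51.6 and 59.1. No regulator passed after a single elevation. After 4 elevations 3 of 17 were higher, led by Id2, an inhibitor of basic helix-loop-helix factors, at 10.8 and 15.98 FPKM against 5.14 and 4.62.

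A further 25 genes known from Müller glia, of which 23 were tested, held 6 higher and 4 lower with age in control eyes, near the shares over all genes, and 10 higher and 4 lower in IOP eyes. Cyp26a1, which degrades retinoic acid, rose from 0.652 and 0.461 to 2.46 and 2.18 FPKM in control eyes. Ptgds, a prostaglandin D synthase that the RPE and other cells also make, fell from 237 and 270 to 18.3 and 12.6. Apoe, a lipid carrier secreted by glia, was at 553 and 349 FPKM in 3mo IOP and 1460 and 1513 in 18mo IOP. After 4 elevations 10 were higher and 2 lower, led by Cp, the ferroxidase ceruloplasmin, at 14.9 and 23.6 FPKM in control and 116 and 202 in 4xIOP, and by Spc25, a kinetochore subunit, at 42.1 and 29.9 against 5.58 and 7.30.

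Reactive gliosis genes passed after a single elevation, where none of the 8 homeostatic genes did. Of 18 genes 8 were higher after a single elevation at 3 months and 5 at 18 months, against 0.568% and 0.117% of all genes, and 17 of the 17 tested after 4 elevations. The single-elevation calls depend on the processing. At 18 months no gene of all those tested passed by limma or voom with a pseudocount of 0.1, median-of-ratios scaling, the length and GC trends removed, voom, the replicate block, only the 2 groups compared, or either 18mo control library left out, where between 730 and 1990 genes had an unadjusted p under 0.05. At 3 months none passed without 3mo control replicate 1 or 3mo IOP replicate 1, where 2919 and 509 had. Gfap, the intermediate filament of reactive glia, was at 2.13 and 2.10 FPKM in control and 25.0 and 31.3 in treated eyes at 3 months, a difference of 3.44 (SE 0.40, adjusted p = 0.0271). It was at 4.87 and 4.39 in 18mo control and 31.4 and 87.5 in 18mo IOP (3.37, SE 0.40, adjusted p = 0.0443), and at 2.14 and 2.69 against 46.1 and 32.7 in the repeated experiment (3.76, SE 0.24). Timp1, a metalloproteinase inhibitor, rose most after a single elevation at both ages, at 0.329 and 0.310 against 21.0 and 17.4 FPKM at 3 months. Lcn2, a secreted iron-scavenging protein of reactive glia, rose most after 4 elevations, from 1.43 and 0.951 to 284 and 825 FPKM. With age 9 of 18 were higher in control eyes and 8 in IOP eyes. Socs3, an inhibitor of JAK-STAT signalling, was at 0.956 and 0.801 in 3mo control against 20.6 and 9.33 in 18mo control, and Lif, a cytokine made by stressed Müller glia, at 0.607 and 0.375 in 3mo IOP against 1.77 and 12.8 in 18mo IOP. Vim passed only after 4 elevations, at 26.8 and 30.0 against 80.6 and 114 FPKM (1.74, SE 0.30, adjusted p = 0.00191).

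**Figure D5:**
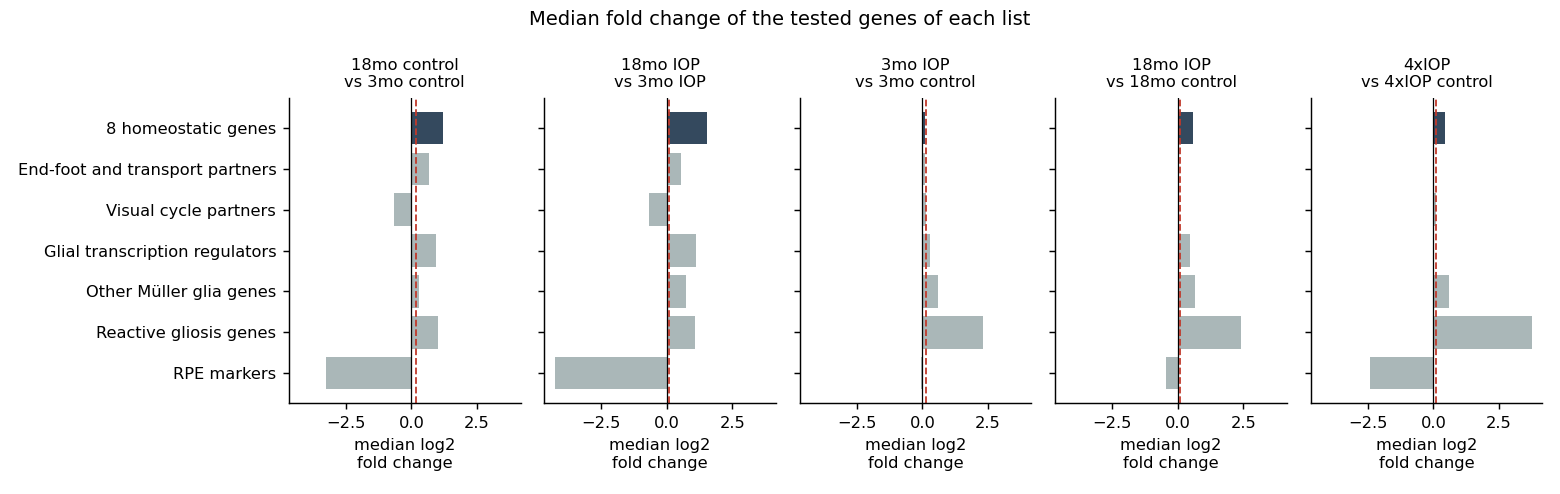
Median log2 fold change (horizontal axis) over the tested genes of each list in 5 comparisons; the dark bar is the 8 homeostatic genes and the dashed red line the median of all tested genes. The 8 genes stand at 1.22 and 1.55 in the age panels and at 0.44 after 4 elevations, where reactive gliosis genes stand at 3.76 and RPE markers at -2.40.

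Markers of other cells moved with the same groups, and their part in the levels of the 8 genes was not tested. The 8 astrocyte markers summed to between 9.04 and 20.1 FPKM at 3 months and between 12.6 and 34.5 at 18 months, and to 9.65 and 8.44 in 4xIOP control against 15.9 and 25.0 in 4xIOP. Pax2, which defines retinal astrocytes, was between 0.013 and 0.199 FPKM in all 12 libraries and under the limit for testing. Of the 5 tested 1 was higher and 1 lower with age in control eyes, 2 were higher with age in IOP eyes and 2 after 4 elevations. Aldh1l1 rose from 1.12 and 1.14 FPKM in 3mo control to 4.58 and 3.94 in 18mo control, and S100b fell from 4.12 and 8.84 to 2.14 and 2.34. After 4 elevations Aldh1l1 was higher, at 8.36 and 11.2 against 2.23 and 2.98. Among genes of rods, Sag, the rod arrestin, fell with age in control eyes from 4304 and 7990.3 FPKM to 2236 and 2195, and Nrl, a transcription factor of rods, fell in IOP eyes from 580 and 509 to 244 and 265. Ganglion cell markers were between 326 and 631 at 3 months and 31.7 and 89.2 at 18 months. Much of this sum was 1 gene, Sncg, at 150 and 443 FPKM in 3mo control and 5.98 and 16.1 in 18mo control. Of the 8 tested, 5 were lower with age in control eyes (median difference -1.33) and 8 in IOP eyes (-2.14). Microglia and leukocyte markers were between 19.3 and 39.4 at 3 months, 37.8 and 98.1 at 18 months, and 10.3 and 10.2 against 56.1 and 58.9 after 4 elevations, where 7 of 8 were higher. Lens markers were at 4.58 and 0.58 in 4xIOP control and at 51.5 and 112 in 4xIOP, and at most 39.1 in the single-IOP experiment. Oligodendrocyte markers summed to between 7.08 and 11.3 FPKM in the 3mo libraries and between 14.2 and 18.3 in the 18mo ones, without overlap, and to 8.51 and 9.11 against 11.1 and 14.7 after 4 elevations, with Mog, Mobp or both at 0 in most libraries. Of 4 tested, 2 were higher and 1 lower with age in each kind of eye. Ciliary body and iris markers summed to 44.9 and 45.3 in 4xIOP control and 20.7 and 25.1 in 4xIOP, and to between 40.2 and 256.4 in the single-IOP experiment, where 3 of 6 were lower and 1 higher with age in control eyes and 4 lower in IOP eyes. Blood markers ran from 19.5 to 426 over the 12 libraries.

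The 8 genes did not share 1 profile. Each profile was centred within its experiment, and its Pearson r with the mean of the 8, which includes the gene itself, was taken over the 12 libraries. It was 0.97 for Aqp4, 0.95 for Dkk3, 0.94 for Abca8a, 0.92 for Slc1a3, 0.91 for Kcnj10, 0.89 for Sox9 and 0.84 for Glul, but 0.46 for Rlbp1. Among the 13051 other genes tested in both experiments, the 5 nearest to the mean were Aif1l (an actin-binding protein), Bmpr1b (a BMP receptor), Acsl3 (an acyl-CoA synthetase), Efhd1 (a mitochondrial calcium-binding protein) and Rhpn2, with r between 0.97 and 0.98. In control eyes these were 2.09, 2.22, 1.90, 4.10 and 2.71 times higher with age by group means. After 4 elevations they differed by at most 0.07 on the log2 scale. The libraries share age group and transcript-length profile, so these r values are a description of the 12 libraries.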

How the data were processed

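Bulk retinal poly(A) RNA was measured in 12 libraries, 2 in each of 6 groups taken from the sample labels. Per the labels and the study's methods, the authors aligned reads to mm10 with STAR 2.7.8a and counted uniquely mapped tags in exons with HOMER, on the transcribed strand and for a single isoform per locus. The values they deposited are FPKM, in a table for each experiment, with no further scaling stated. From the steps in FPKM times length the number of tags in each library was recovered, and at least 99.99% of the values checked came to whole reads within 0.25. Gene counts of 83 reads or more lay behind every value of the 8 genes, a counting error of at most 11.0%.

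Of the 25124 genes, 13731 (single elevation) and 13718 (repeated) averaged 0.5 FPKM or more and were fitted on the log2(FPKM + 0.5) scale by lmFit and eBayes with a mean-variance trend (limma 3.58.1, R 4.3.3). All 4 groups of the single-IOP experiment entered 1 fit, which left 4 residual degrees of freedom. The repeated experiment had its own fit, with 2. Adjusted p-values are Benjamini-Hochberg over all tested genes. The steps were tested on simulated data. Genes named from a list are its largest rise and fall at an adjusted p of at most 0.05, with Gfap and Vim and the 3 other tested ABCA family genes named throughout. Libraries were set against markers of other cell types, and 1 named gene and the sums and counts of 1 marker list are not reported here. The genes and lists were chosen with earlier results of these data known, and so support nothing by themselves. Alternatives were pseudocounts of 0.1 and 1, no filter, a minimum mean of 2 FPKM, median-of-ratios and quantile scaling, no trend, removal of the length trend or of the length and GC trends (splines with 5 degrees of freedom, GC known for 99.4% and 99.3% of genes), voom on the recovered reads, a replicate block, only the 2 groups compared, and each library left out. Columns of transcript length and position were used as deposited.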

Additional observations from a re-analysis of the deposited data

How the results depend on the processing

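Kcnj10 and Dkk3 passed the age test in both kinds of eye under every alternative and without each library. Of 543 differences of single members recomputed under alternatives that kept all libraries, 501 kept their direction and their call or lack of one, 26 changed sign, 9 became calls and 7 were no longer calls. Members called with age in control eyes ran from 2 to 5 as each library was left out, and members passing at the adjusted p from 2 to 7, with 4 when the length trend was removed. In IOP eyes both counts ran from 4 to 7, and were 8 with quantile normalization. After 4 elevations the members called were 1 in place of 0 with a pseudocount of 0.1 (Sox9), median-of-ratios scaling, quantile normalization, no trend, the length trend removed, the length and GC trends removed, and voom (Glul in each), and ran from 0 to 1 as libraries were left out. Those at the adjusted p went from 1 to 0 without a filter and with a mean of at least 2 FPKM, which drops Sox9, to 2 with quantile normalization, no trend, the length trend removed, the length and GC trends removed, and voom, and ran from 0 to 1 as libraries were left out.

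Of the differences that changed sign, Rlbp1 with age in control eyes passed with quantile normalization (0.73, adjusted p = 0.0244 by limma), and the others passed under no alternative. Rlbp1 with age in control eyes was -0.073 with median-of-ratios scaling, -0.072 with voom and -0.14 with the length and GC trends removed, and from -0.23 to 0.43 with libraries left out. At 3 months after a single elevation, median-of-ratios scaling, quantile normalization, the length trend removed and voom gave -0.11, -0.066, -0.0065 and -0.11 in Aqp4 and -0.080, -0.039, -0.012 and -0.082 in Slc1a3, and the length and GC trends removed gave -0.032 in Aqp4. With libraries left out, differences there ran from -0.24 to 0.015 in Glul, -0.63 to 0.021 in Rlbp1 and -0.0059 to 0.23 in Slc1a3. At 18 months median-of-ratios scaling, the length trend removed, the length and GC trends removed and voom gave -0.042, -0.055, -0.055 and -0.043 in Glul and -0.11, -0.15, -0.17 and -0.11 in Rlbp1, with -0.15 in Rlbp1 after quantile normalization, and ran from -0.11 to 0.27 in Glul and -0.21 to 0.23 in Rlbp1 with libraries left out. The interaction of Rlbp1 ran from -0.015 to 0.64. Abca8a after 4 elevations was -0.064, -0.051, -0.040, -0.080 and -0.066 with median-of-ratios scaling, quantile normalization, the length trend removed, the length and GC trends removed and voom, and ran from -0.29 to 0.40. The cause was not tested.

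Same-numbered libraries deviated from their group means in opposite directions (r = -0.28, -0.53 and -0.29 over genes at 3 months, at 18 months and in the repeated experiment), so the numbers were not taken as pairs. With the replicate block 0 members passed after a single elevation at either age and 1 after 4 elevations, as without it. With the numbers crossed in the block, an alternative chosen after seeing the data, 1 member (Sox9) was called and passed at 18 months, where genes higher over all tested went from 16 to 331, none passed at 3 months, where they went from 78 to 325, and Sox9 passed after 4 elevations, as without it, where they went from 939 to 1492. The number of libraries, 2 a group, limits the precision of each difference.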
